A study of Mus musculus with 3 samples.

Results

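The regions described here are the autosomal places in the mouse genome at which a peak was called both with an antibody against Jmjd2a and with an antibody against Jmjd2c. A member is a peak on chromosomes 1 to 19 that shares at least 1 bp with a peak of the other list. Members were thus chosen by the measured positions of the calls. There were 418 of them among 1149 autosomal peaks and 2252 peaks in all: 203 Jmjd2a peaks, 38.7% of the 524 on autosomes, and 215 Jmjd2c peaks, 34.4% of the 625. Joined at gaps of at most 1 kb, they formed 151 separate loci.

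The cells were splenic B220+ B cells from C57BL/6 mice with the transgene Tg(IghelMD4)4Ccg, sorted on magnetic beads. They were stimulated with IL-21, HEL and an antibody against mouse CD40. This transgene gives most B cells an antigen receptor for hen egg lysozyme. Every library shared this genotype and stimulation and differed in its antibody, anti-Jmjd2a, anti-Jmjd2c or normal rabbit IgG, with 1 library each. The cell type field names B220+ B cells for all 3 samples, while the source name field gives a different marker number for the Jmjd2c and IgG samples. The IgG sample is titled as an input. The sources used here do not give the age of the mice, the number pooled or the time of stimulation. An unstimulated library and an IgG peak list were not analysed here, so the effect of stimulation was not tested, and protein binding and antibody-independent signal cannot be told apart. Peak lists carry no expression values, so the labelled cell type was not checked against its markers.

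Jmjd2a and Jmjd2c, also named Kdm4a and Kdm4c, belong to the JmjC family of histone demethylases, which use iron, oxygen and 2-oxoglutarate to remove methyl groups from lysines. Both act on trimethylated and dimethylated lysines of histone H3 found in silent chromatin and across transcribed genes, and both carry tudor domains that read methylated histone tails. Ligation of CD40 and the cytokine IL-21 are signals that T follicular helper cells give to B cells. The study asked which genes the 2 enzymes control under such signals. A region called with both antibodies is a place where calls of both lists overlap by at least 1 bp. By itself this does not show that both enzymes bind there.

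The shares of 38.7% (95% Wilson interval 34.7 to 43.0) and 34.4% (30.8 to 38.2) are what the rule selects, and nothing is read from them. Members held a larger part of the covered length than of the peaks. Wide peaks meet a partner more easily, so this follows in part from the rule, and it was not tested. Shared Jmjd2a peaks covered 77.3 kb of 144.6 kb, or 53.5%. Shared Jmjd2c peaks covered 66.3 kb of 152.6 kb, or 43.5%. The authors' score of a member, which no header explains, ran from 50.13 to 2154.81 with the Jmjd2a antibody and from 50.48 to 2455.24 with the other. Scores are not scaled between the libraries, so a higher score in 1 list is not stronger binding.

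The strongest autosomal peaks of both lists were nearly all members. The 20 highest Jmjd2a peaks and the 20 highest Jmjd2c peaks were all shared, and so were 47 of the first 50 in each list. The first Jmjd2a peak without a partner stood at rank 32, and the first such Jmjd2c peak at rank 44. At a score of 200 and over, members were 34 of 35 Jmjd2a calls and 29 of 29 Jmjd2c calls. Between 50 and 60, members were 17.2% (12.4 to 23.4) of 180 Jmjd2a calls and 15.8% (11.8 to 20.8) of 253 Jmjd2c calls. From 75 to 100 the shares were 48.4% and 43.5%, and each higher band had a larger share than the one before it in both lists. Members had a median score of 103.5 (quartiles 72.4 and 155.9) in the Jmjd2a list, beside 60.7 for Jmjd2a peaks without a partner. For Jmjd2c the medians were 91.7 (65.4 and 143.5) and 59.3. A member had to pass the caller's threshold in both libraries, so its score is not independent of the choice, and these differences were not tested. The intervals cover counting error only and count peaks of the same locus separately. A single locus on chromosome 10, for example, gave the Jmjd2a peaks at ranks 1, 2, 9 and 12.

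**Figure D1:**
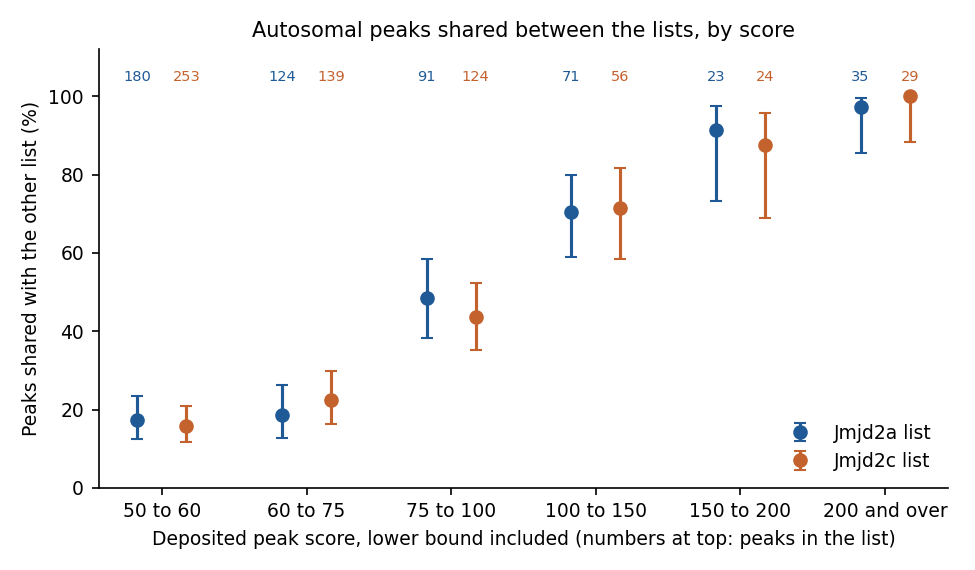
Share of autosomal peaks that met a peak of the other list (vertical axis, percent) in 6 bands of the deposited score (horizontal axis), with 95% Wilson intervals as bars and the number of peaks above. The share goes from 17.2% and 15.8% in the lowest band to 97.1% and 100% in the highest. The intervals cover counting error only, and peaks of the same locus are counted separately.

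Most loci were simple. In 124 of the 151 loci (82.1%) a single Jmjd2a peak met a single Jmjd2c peak, with a median length of 257 bp for both together. Another 16 loci held 3 or 4 members. The other 11 loci held at least 5 and together 111 members, 26.6% of the total, within 33.4 kb. Among them, 4 loci on chromosomes 10, 2, 14 and 18 held 73 members in 23.0 kb. Scores are described by locus first, and the positions of the calls by pair after that.

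The highest locus in both lists was on chromosome 10, from 7229367 to 7237176. It held 7 Jmjd2a and 7 Jmjd2c peaks that matched 1 to 1, with no unmatched peak inside it or within 1 kb. The central pair was the top autosomal peak of each list, 2834 bp wide for Jmjd2a (score 2154.81) and 2806 bp for Jmjd2c (score 2455.24). A flanking pair from 7229367 to 7230618 had scores of 1017.86 (Jmjd2a) and 999.12 (Jmjd2c). The weakest pair, from 7232157 to 7232492 in the Jmjd2a list, scored 71.84 and 76.51. Strong and weak pairs thus stood side by side within 7.81 kb. Starts of the paired calls lay at most 20 bp apart and ends at most 51 bp apart. The median pair shared 97.3% of the longer peak, and peaks covered 80.9% (Jmjd2a) and 80.3% (Jmjd2c) of the locus.

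The locus with the most members spanned 27350917 to 27358218 of chromosome 2 and held 27 of them, 13 for Jmjd2a and 14 for Jmjd2c, in 7.30 kb. Its peaks were short, from 138 to 549 bp for Jmjd2a and from 97 to 411 bp for Jmjd2c, and covered 46.3% and 34.6% of the locus. The highest Jmjd2a peak there, from 27355237 to 27355785, scored 579.00. The highest Jmjd2c peak, from 27355475 to 27355775, lay inside it and scored 355.84. Median scores were 143.6 and 94.6, and the Jmjd2a score was the larger number in 11 of 14 pairs. Scores are not scaled between the libraries, and the Jmjd2a peak of 579.00 counts more than once among these pairs. Within the locus, 2 Jmjd2a peaks and 1 Jmjd2c peak had no partner. A Jmjd2a peak from 27350917 to 27351072 and the next one from 27351296 to 27351451 had the same width, 156 bp, and the same score, 52.89. Such ties were not particular to this locus. Jmjd2c members on different chromosomes also tied, at 109 bp and 58.53 (chromosomes 1 and 14), 99 bp and 62.23 (1 and 2), and 114 bp and 65.86 (2 and 4).

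Calls on chromosomes 14 and 18 met each other with less regular edges. On chromosome 14, from 45289678 to 45293631, 6 Jmjd2a peaks faced 9 Jmjd2c peaks in 10 pairs, with a median shared part of 27.0%. A Jmjd2a peak of 1143 bp (score 682.54) met 4 Jmjd2c peaks there, which scored 84.47, 92.53, 51.87 and 94.40. Toward the other end of that locus the order turned, and 1 Jmjd2c peak of 597 bp (score 352.04) met Jmjd2a peaks with scores of 131.24 and 357.98. On chromosome 18, from 7319773 to 7323666, 7 Jmjd2a peaks faced 10 Jmjd2c peaks in 12 pairs, with a median shared part of 39.2%. Its leading calls did not coincide. The highest Jmjd2a peak, from 7322641 to 7323666, scored 846.93 and met Jmjd2c peaks with scores of 61.74, 316.69 and 127.88. The highest Jmjd2c peak, from 7321021 to 7321845, scored 631.09 and met Jmjd2a peaks with scores of 141.44 and 708.39. The calls of both lists in these loci thus differed in number and in extent. Jmjd2a peaks covered 73.3% of the chromosome 14 locus and 83.4% of the chromosome 18 locus. Jmjd2c peaks covered 55.0% and 68.1%.

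**Figure D2:**
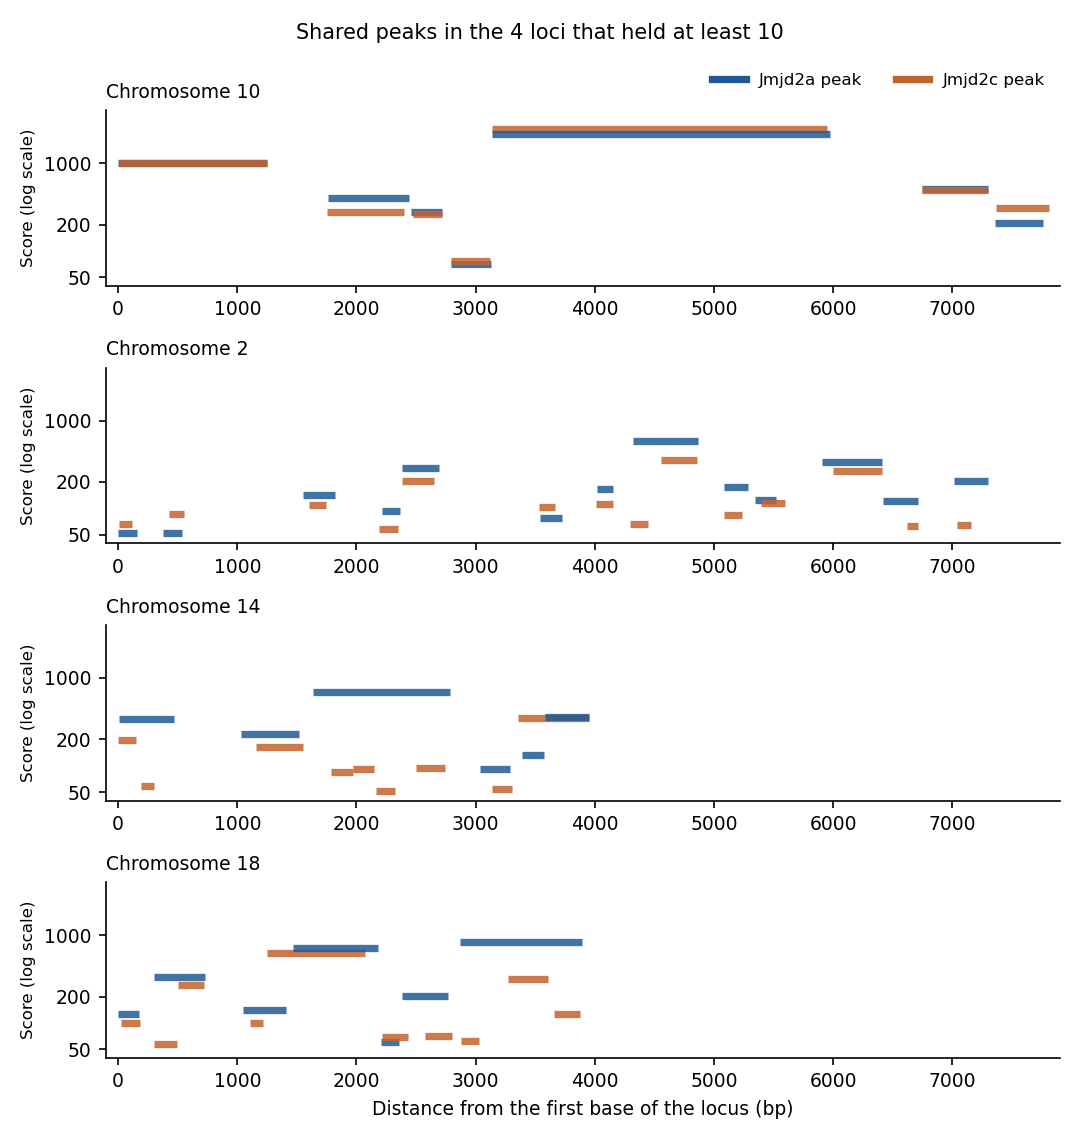
Shared peaks in the 4 loci with at least 10 members, drawn as horizontal lines from the first to the last base of each peak (horizontal axis, bp from the first base of the locus) at the height of its score (vertical axis, log scale). On chromosome 10 the lines of both lists start within 20 bp of each other in all 7 pairs, while on chromosome 14 a Jmjd2a line with a score of 682.54 spans 4 Jmjd2c lines.

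Of the 7 loci with 5 to 9 members, the highest was on chromosome 5 from 105356416 to 105357697, where 3 peaks of each list had top scores of 686.78 (Jmjd2a) and 704.91 (Jmjd2c). A second locus on chromosome 5, from 80242381 to 80243427, also held 3 peaks of each. In its leading pair both calls started at 80242602, with widths of 153 and 151 bp and scores of 251.05 and 228.53. The loci on chromosome 6 from 29697870 to 29699162, chromosome 9 from 115059816 to 115060950 and chromosome 13 from 74665841 to 74667673 each held 2 Jmjd2a and 3 Jmjd2c peaks. Top Jmjd2a scores in these were 237.67, 216.58 and 198.97, and top Jmjd2c scores were 292.92, 196.69 and 238.82. The locus on chromosome 9 had 3 further Jmjd2a peaks without a partner within 1 kb, and the one on chromosome 6 had none.

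The remaining loci of this kind were on chromosome 7. From 71623159 to 71625581, 3 Jmjd2a peaks scored at most 64.08 and 3 Jmjd2c peaks at most 143.55. From 71632011 to 71633418, top scores were 118.23 for Jmjd2a and 91.49 for Jmjd2c. Both were part of a cluster of 8 loci between 71612906 and 71639140. In these 26.2 kb, members were 15 of 24 calls in each list. The strongest locus of the cluster, from 71612906 to 71614540, had a top Jmjd2a score of 351.00 and a top Jmjd2c score of 202.35. No other stretch had more than 2 loci with gaps of at most 100 kb, and 129 loci had no other locus that close.

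High scores also occurred in loci with 1 peak of each list. On chromosome 17 from 36621572 to 36621925, a Jmjd2a peak of 351 bp scored 940.07 and a Jmjd2c peak of 323 bp scored 1072.98. They ranked 3 and 2 among the autosomal peaks of their lists. Also on chromosome 17, from 13743464 to 13746139, a wide pair of 2635 and 2627 bp had a Jmjd2a score of 449.45 and a Jmjd2c score of 913.86. On chromosome 13, the pair from 4560411 to 4560804 scored 409.28 and 441.12, and a second pair from 4559114 to 4559362, just over 1 kb away, scored 269.02 and 377.55. A pair on chromosome 9 from 13422608 to 13422920 scored 358.32 and 308.51, which was rank 14 among the autosomal peaks of both lists. On chromosome 1, a pair from 135491052 to 135492744 scored 361.52 and 176.43, and another from 21622779 to 21623146 scored 196.85 and 193.87. The leading 20 loci also included pairs on chromosome 17 from 13498801 to 13499208 (173.43 and 213.92) and chromosome 8 from 28183901 to 28184458 (210.65 and 150.11), each with the Jmjd2a score first. A locus with 2 peaks of each list, on chromosome 18 from 85885468 to 85885961, was among them too, with top scores of 246.29 and 170.75.

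Across the 151 loci, Spearman's rho between the highest Jmjd2a and the highest Jmjd2c score was 0.51, and 0.43 over the 124 loci with 1 peak of each list. This is a description without a p-value: the loci share the same pair of libraries and the same underlying sequence, and weaker regions are missing wherever either score fell short of the caller's threshold. At a score of 300 or more there were 11 loci by Jmjd2a and 11 by Jmjd2c, of which 9 were common to both. At 100 or more the counts were 79 and 67, with 48 loci in common. In 56 loci both scores were above the 75th percentile of their own autosomal list, and in 3 both were at or under the 25th. Percentiles differed by no more than 10 points in 64 loci and by more than 50 points in 18.

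**Figure D3:**
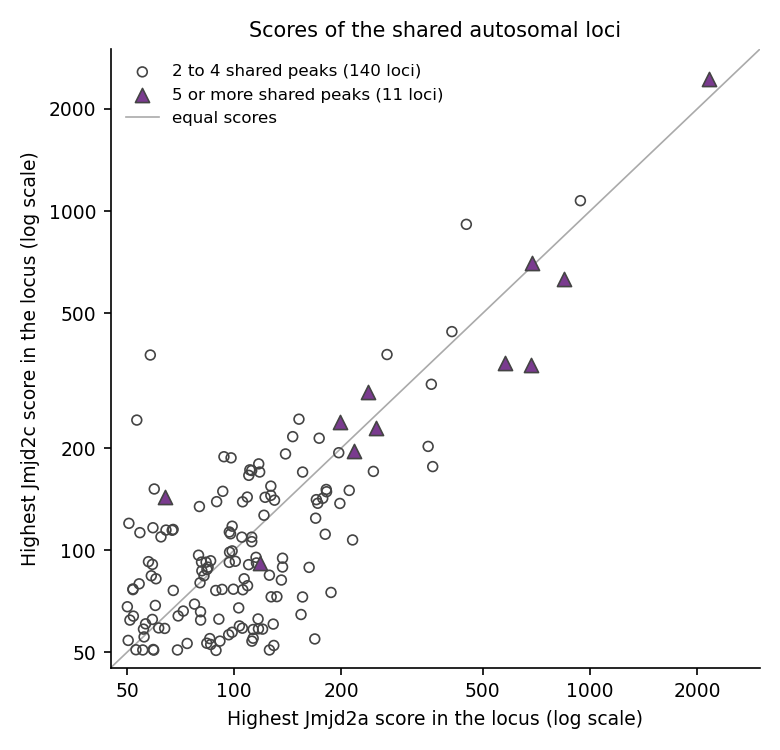
Highest Jmjd2a score (horizontal axis) and highest Jmjd2c score (vertical axis) of each of the 151 shared loci, both on log scales, with triangles for the 11 loci of at least 5 members and a line at equal scores. Of the 151 points, 131 lie within 2-fold of the line, 8 above that range and 12 below it. The highest point is the chromosome 10 locus at 2154.81 and 2455.24. Scores are not scaled between the libraries, so the line is a guide to the eye only.

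The 18 loci with distant percentiles were split, 10 with the Jmjd2c percentile higher and 8 with the Jmjd2a percentile higher. On chromosome 4 from 118219599 to 118221433, the Jmjd2c peak scored 376.31 and ranked 10 of 625, while the Jmjd2a peak scored 58.16 and ranked 385 of 524. Their extents were nearly equal, at 1705 and 1835 bp. On chromosome 8 from 19923683 to 19927201, the widest member of all, a Jmjd2a peak of 3480 bp, scored 53.29. It met Jmjd2c peaks of 2440 and 1072 bp with scores of 142.35 and 241.94. Loci on chromosome 1 from 37289695 to 37290034 (50.63 for Jmjd2a and 120.03 for Jmjd2c), chromosome 17 from 13545177 to 13545548 (54.37 and 112.66) and chromosome 17 from 87601281 to 87601696 (59.66 and 151.54) had the same direction. In these 5 loci the Jmjd2a call lay close to the lower limit of its list.

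The opposite direction was led by chromosome 13 from 56626059 to 56626430, where the Jmjd2a peak scored 125.70 (rank 79 of 524) and the Jmjd2c peak 50.80 (rank 598 of 625). On chromosome 16 from 3240845 to 3241669, scores were 129.29 for Jmjd2a and 52.38 for Jmjd2c. A neighbouring locus on chromosome 16, from 3235566 to 3237370, had closer percentiles, with 96.94 and 92.08. The next 3 loci by percentile gap were on chromosome 4 from 49414440 to 49414622 (168.57 and 54.75), chromosome 1 from 109089841 to 109089991 (88.97 and 50.65) and chromosome 3 from 95276258 to 95276669 (112.23 and 53.94). Ranks in lists of different length and unknown depth do not show a change in binding, and with 1 library per antibody none of these gaps has a replicate check.

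At the low end, several regions passed in both lists by a small margin. The lowest locus by mean percentile was on chromosome 14 from 68910828 to 68911014, with scores of 53.00 for Jmjd2a and 50.88 for Jmjd2c. The next were on chromosome 11 from 5709778 to 5709968 (50.40 and 54.21) and on chromosome 6 from 148553417 to 148553593 (55.39 and 50.80). The pair on chromosome 6 still matched within 9 bp at both edges. In 7 loci both scores were under 60.

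The rule paired peaks that shared at least 1 bp. Overlap and the widths of the peaks bound the distances and shared parts given here, which were not tested. The members formed 222 overlapping pairs, of which 177 (79.7%) were 1 to 1. A total of 16 Jmjd2a peaks met more than 1 Jmjd2c peak, and 7 Jmjd2c peaks met more than 1 Jmjd2a peak. The median shared length was 167.5 bp (quartiles 127.3 and 278.3). Taken separately, the median shared part was 67.7% of the longer peak (48.4 and 83.5). Centres lay a median of 32 bp apart (15.6 and 99.5). In 163 pairs (73.4%) the shared bases made up at least 50% of both peaks, and in 28 pairs at least 90%. In all, 59.5 kb were common to both lists, which is 77.0% of the Jmjd2a member length and 89.7% of the Jmjd2c member length.

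The commonest arrangement was staggered, in 114 pairs, 59 with the Jmjd2c peak to the right and 55 to the left. The Jmjd2c peak lay wholly inside the Jmjd2a peak in 87 pairs, and the reverse held in 21. The Jmjd2a peak was wider in 160 pairs and the Jmjd2c peak in 60, with equal widths in 2. The 11 loci of at least 5 members gave 64 of the 222 pairs. In the other 158 pairs, 84 were staggered, the Jmjd2c peak lay inside in 56 and the Jmjd2a peak in 18, and the Jmjd2a peak was wider in 110 and the Jmjd2c peak in 47. Among the 177 pairs that matched 1 to 1 the counts were 125 and 50. Each antibody has 1 library, of unknown read depth and caller settings. These width differences between the lists are therefore not a measure of broader binding, and they were not tested. Median widths of the members were 258 bp for Jmjd2a (quartiles 184 and 400) and 206 bp for Jmjd2c (151 and 336.5). Those of autosomal peaks without a partner were 186 and 177 bp. Wide peaks meet a partner more easily, so the width of members against other peaks follows in part from the rule. Members at least 1 kb wide numbered 11 for Jmjd2a and 8 for Jmjd2c, beside 2 and 4 peaks of that width without a partner.

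Starts of paired calls lay within 10 bp of each other in 48 pairs and ends in 42. Both edges did so in 10 pairs, of which 3 were in the chromosome 10 locus. The closest pair there ran from 7236109 to 7236667 in the Jmjd2a list and was shifted by 1 bp at both ends in the Jmjd2c list, with scores of 508.73 and 497.19. In the chromosome 2 locus a Jmjd2a peak from 27354932 to 27355069 (score 167.93) was met by a Jmjd2c peak (score 112.66) whose edges differed by 2 and 1 bp. The other pairs with such edges were on chromosomes 1, 3, 5, 6, 8 and 14. No pair had identical starts and ends.

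**Figure D4:**
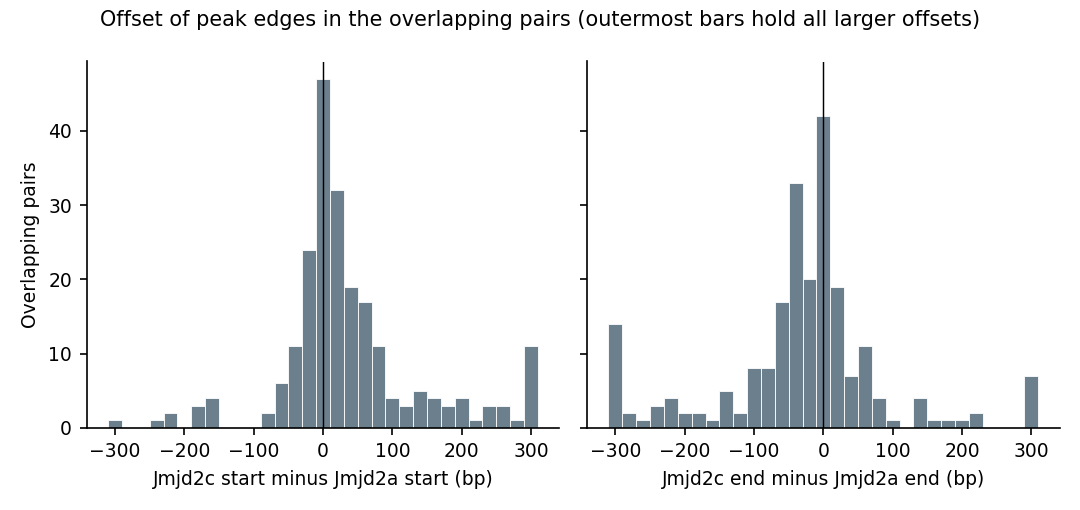
Number of overlapping pairs (vertical axis) by the distance from the Jmjd2a edge to the Jmjd2c edge in bp (horizontal axis), for starts on the left and ends on the right, with all larger offsets in the outermost bars. The median offset is 13 bp for starts and -22 bp for ends, each taken over all 222 pairs.

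Near the limit of the rule, the pair with the fewest common bases shared 2 bp on chromosome 1, where a Jmjd2a peak ended at 63676826 and a Jmjd2c peak began at 63676825. That Jmjd2c peak also met the next Jmjd2a peak, from 63676863 to 63677302, over 430 bp. The following pairs shared 17 bp on chromosome 7 (Jmjd2a peak from 71632011 to 71632283), 17 bp on chromosome 11 (from 18231670 to 18231930), 49 bp on chromosome 18 (from 7322153 to 7322539) and 52 bp on chromosome 7 (from 71619945 to 71620151). Just outside the rule, a Jmjd2a peak on chromosome 4 from 32443951 to 32444138 (score 52.77) was 19 bp from a Jmjd2c peak with a score of 97.82. A gap of 20 bp left out the Jmjd2a peak at 27352904 to 27353088 of chromosome 2, which scored 113.14, and a gap of 22 bp the one at 71640299 to 71640639 of chromosome 7, which scored 102.47. Gaps of 32 and 34 bp left out Jmjd2a peaks at 3009208 to 3010117 of chromosome 4 (score 52.94) and at 192123907 to 192124169 of chromosome 1 (56.56). Peaks without a partner that lay within 100 bp of the other list numbered 11 of 321 for Jmjd2a and 11 of 410 for Jmjd2c.

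Members were found on 18 of the 19 autosomes. Chromosome 1 had the most loci, 18, followed by chromosome 7 with 14 and chromosome 4 with 12. By members, chromosome 2 led with 43 and chromosome 7 followed with 42, but 27 of the 43 were in the single chromosome 2 locus described above. On chromosome 18, members were 14 of 26 Jmjd2a calls (53.8%, 35.5 to 71.2) and 17 of 27 Jmjd2c calls (63.0%, 44.2 to 78.5), and 17 of these 31 were in 1 locus. Chromosome 5 had like counts of members, 16 and 16, out of unlike totals, 41 Jmjd2a and 76 Jmjd2c peaks. On chromosome 12 there were 2 members of 16 for Jmjd2a and 2 of 21 for Jmjd2c, with top scores of 96.55 and 82.38. On chromosome 19 there were 0 of 8 and 0 of 16. Taken as 3 counts of the total, this allows shares of up to 37.5% and 18.8%. The upper Wilson limits were 32.4% and 19.4%. All of these limits cover counting error only. Differences between chromosomes were not tested.

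**Figure D5:**
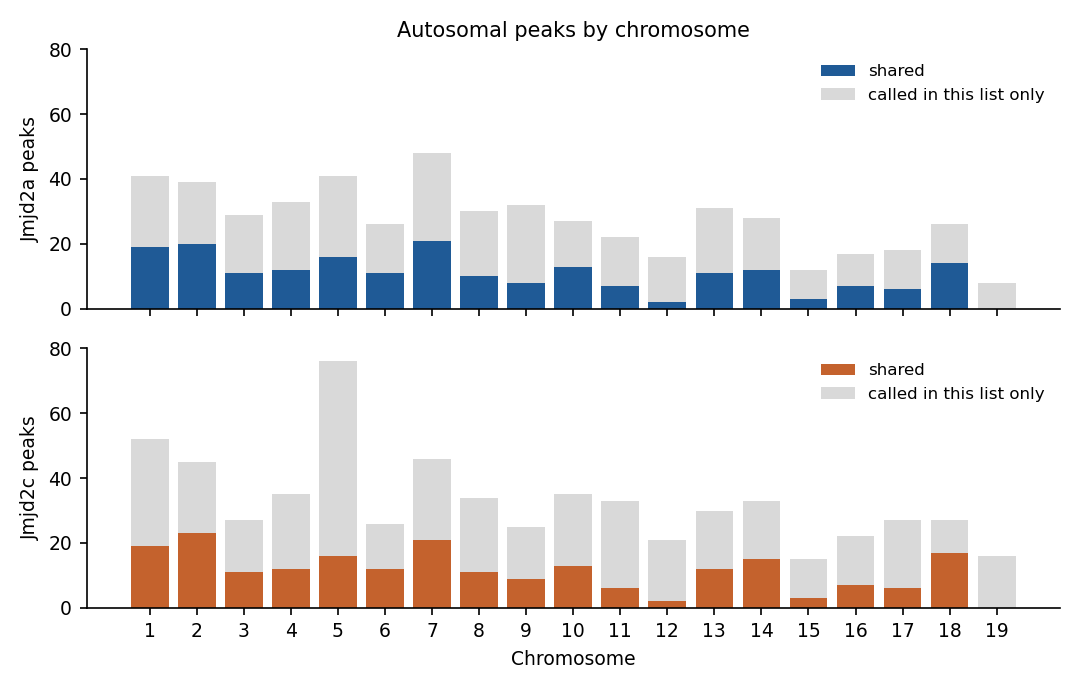
Autosomal peaks per chromosome (vertical axis, number of peaks) in the Jmjd2a list above and the Jmjd2c list below, with members in colour and peaks called in a single list in grey. Chromosome 5 has 16 members in both lists but 76 Jmjd2c peaks in all, and chromosome 19 has no member.

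Some peaks of a single list lay next to a shared locus. Within 1 kb of a locus were 26 Jmjd2a peaks without a partner, 8.10% of all such peaks, and 19 such Jmjd2c peaks, 4.63%. From the side of the loci, 19 of 151 had such a Jmjd2a peak within 1 kb and 17 such a Jmjd2c peak. At 10 kb the numbers were 29 and 21.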

How the data were processed

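Chromatin from 3 libraries was immunoprecipitated with anti-Jmjd2a, anti-Jmjd2c or normal rabbit IgG, and a peak list of each demethylase was analysed. The submitters' processing notes name Bowtie 0.12.7, FastQC and the mm9 build. Peaks are named in the style of the caller MACS, whose version, settings and control library the sources used here do not give. The authors deposited 1 list per library, not pooled, with a score for each peak whose scale no header names. The score serves here to rank and describe peaks within a list. Read depth behind a peak is unknown.

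Peaks on chromosomes 1 to 19 were kept. A peak was shared when it had at least 1 bp in common with a peak of the other list. Shared peaks of both lists were joined into loci at gaps of at most 1 kb. Positions are mm9, counted from 1. The work used Python 3.11.15, numpy 2.4.6, pandas 2.3.3, scipy 1.17.1 and matplotlib 3.10.9. Shares have 95% Wilson intervals, for counting error alone. No test was run: each antibody has 1 library, overlap itself chose the regions, and peaks are not replicates. The overlap count was run on simulated data with 200 planted pairs, each 1 to 1 and sharing 1 bp, and all 200 were found. Peaks that meet several others and the joining of close pairs were not part of that check.

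The regions and groupings were chosen with earlier results of these data known. Named loci were the 20 with the best mean of the within-list score percentiles, the 5 with the largest percentile gap in each direction, those with at least 5 shared peaks and those of the 3 widest peaks. Also named were the 5 pairs with the fewest shared bases and the 5 Jmjd2a peaks without a partner closest to a Jmjd2c peak. Alternatives were a 50% overlap of both peaks, centres within 1 kb, the better-scoring part of each list, merged peaks, other joining distances, pairs in place of loci, and leaving out loci of at least 5 peaks. Genes and sequences under the peaks were left out, since no mm9 genome or annotation was used here.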

Additional observations from a re-analysis of the deposited data

How the results depend on the processing

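Of 37 alternative values for 10 results, 26 stayed near the reported one, 11 moved and 0 reversed. Only rho could have changed sign, so for the other results the last count was fixed in advance. Nor could the median shared part of the longer peak have moved where at least 50% of both peaks had to be common. The values that moved were every alternative for both shares, and the number of loci among peaks at or above the median score. A share counted as moved when it left the 95% Wilson interval of the reported share, and a median, a count of loci or rho when it changed by more than 1.5 times, since no replicate spread exists. The shared part of the autosomal Jmjd2a list was 31.1% when at least 50% of both peaks had to be common, 49.2% among peaks at or above the median score, 46.2% with centres within 1 kb, 34.2% after peaks closer than 1 kb were merged, and 32.6% without the loci of at least 5 members. In the same order, the Jmjd2c share was 26.1%, 43.5%, 38.9%, 28.9% and 27.4%. The number of loci fell from 151 to 93 among peaks at or above the median score, a setting with fewer peaks by construction. It was 196 when peaks were joined only where they overlapped and 138 at gaps of at most 10 kb, both within the 1.5-fold limit. No paired analysis was possible because the groups have 1 library each. The read depth is unknown, so how far a missing partner fell short of the caller's limit cannot be read.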
